A study of Orbilia oligospora with 9 samples.

Results

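Among the 12901 loci of the expression table, 3 genes with a lectin domain were selected on their FPKM in earlier results of these data, where both mutants stood far below WT. They are AOL_s00006g511 (D-mannose binding lectin domain), AOL_s00080g288 (fungal fruit body lectin domain) and AOL_s00188g331 (fungal fucose-specific lectin domain). Their values in the mutants against WT are therefore given as a description, with no test. RNA-seq libraries came from hyphae of Orbilia oligospora (Arthrobotrys oligospora), strain ATCC 24927, a soil fungus that traps nematodes. Each of 3 groups had 3 libraries. The first carried the genotype label Vps1 knockdown and the second the label Mdv1 knockdown, and both are called mutants here because the series design speaks of ΔAovps1 and ΔAomdv1 mutants. The third was WT. All plates of TYGA (tryptone yeast glucose agar) had been kept at 28 °C for 5 days, and the treatment label, aerial hyphae differentiation, was shared by the 3 groups. The series calls its replicates biological, but neither the number of transformants behind a mutant nor whether each library had its own plate is given in the sources used here. What p-values weigh here is thus variation among 9 libraries that could be technical.

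Lectins are proteins that bind particular sugars without changing them. Fungi make soluble lectins that sit in the cytoplasm, on the cell wall or in the medium, and such proteins are known for binding glycans of other organisms, nematodes among them. A separate set of lectins works inside the secretory pathway, where calnexin, OS-9 and the L-type cargo receptors read the sugar chains of newly made glycoproteins. Mdv1 is the adaptor that brings dynamin to mitochondria in yeast, and Vps1 is a dynamin-related GTPase of vacuolar and endosomal traffic.

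The values were the authors' FPKM (fragments scaled to gene length and library size), so levels can be set side by side between genes. The depth estimated from the step size of low values was 18100000 to 19400000 fragments in the libraries labelled Aovps1 mutant, 15950000 to 17300000 in those labelled Aomdv1 mutant and 17200000 to 19050000 in WT. The MDV1 gene AOL_s00097g206 averaged 109.1 ± 23.5 FPKM with the Aomdv1 label and 121.2 ± 10.5 FPKM in WT (SD, n = 3 each). Its log2 fold change was -0.17 (limma adjusted p = 0.768), so the label was not borne out by the transcript and mutant libraries are named by label. The VPS1 gene AOL_s00007g394 averaged 37.94 ± 13.4 FPKM with the Aovps1 label, 44.01 ± 9.95 FPKM with the Aomdv1 label and 87.06 ± 16.7 FPKM in WT. Its log2 fold change over WT was -1.23 (limma adjusted p = 0.0421, and 0.0154 to 0.159 over 16 alternatives, 8 of which lost the call) for the Aovps1 label and -0.97 (limma adjusted p = 0.117) for the Aomdv1 label, and the mutant libraries overlapped. Over tested loci the log2 values of 2 libraries of 1 group had r of 0.98 to 0.991 (Aovps1 label), 0.863 to 0.961 (Aomdv1 label) and 0.896 to 0.981 (WT). In WT library 3, 5548 of the 10318 tested loci (53.8%) had the highest of the 3 WT values.

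The 3 genes lie on 3 scaffolds, in assembly AOL24927 1.0, whose gene coordinates equal those of the table. AOL_s00006g511 lies at NW_011645563.1, 1683611 to 1684042, plus strand, a span of 432 bp. AOL_s00080g288 lies at NW_011645637.1, 1028170 to 1030497, plus strand, a span of 2328 bp. AOL_s00188g331 lies at NW_011645745.1, 1121113 to 1122301, plus strand, a span of 1189 bp. The annotation columns were not unanimous. For AOL_s00080g288 the Pfam domain and the Swiss-Prot hit, the Agaricus bisporus lectin, both name a lectin, while its KEGG ortholog name is a THO complex subunit. For AOL_s00188g331 the Pfam domain is that of fucose-specific lectins, while the Swiss-Prot hit is a wall-associated proteinase and its GO terms include the cell wall and peptidase activity. AOL_s00006g511 had no Swiss-Prot hit, and its lectin name rests on the Pfam domain and on a TrEMBL entry with a bulb-type lectin domain.

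AOL_s00080g288, whose fruit body lectin domain is named after mushroom lectins such as that of Agaricus bisporus, was the most abundant of the 3 genes in every library. It had 111.14, 169.37 and 110.38 FPKM in the libraries labelled Aovps1 mutant, 508.4, 475.09 and 458.1 FPKM in those labelled Aomdv1 mutant, and 4761.3, 8828.67 and 15724.34 FPKM in WT libraries 1, 2 and 3. All 6 mutant libraries were below all WT libraries, and the 2 mutant groups did not overlap. In WT it ranked 23, 12 and 7 from the top among all loci. Its transcripts were not lost from the mutants. In the libraries labelled Aovps1 mutant its level was above that of 88.3 to 92.2% of loci, and in those labelled Aomdv1 mutant above that of 96.5 to 97.0%. The mean was 1.33% of the WT mean in the libraries labelled Aovps1 mutant and 4.92% in those labelled Aomdv1 mutant. The log2 fold change over WT, on the scale of FPKM + 1, was -6.08 (SE 0.399) in the first and -4.18 (SE 0.399) in the second.

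AOL_s00006g511 carries the bulb-type domain first known from mannose-binding plant lectins. It had 1.24, 0.45 and 2.61 FPKM in the libraries labelled Aovps1 mutant, 2.10, 0.66 and 0 FPKM in those labelled Aomdv1 mutant, and 82.81, 271.81 and 5065.88 FPKM in WT libraries 1, 2 and 3. No mutant library came near the lowest WT library, but WT library 3 stood 61.2 times above WT library 1. The SD of its log2 values in WT was 3.05, against a median of 0.45 over all tested loci, and only 3 of the 10318 tested loci, this gene included, had an SD that large. At the estimated depth, with the gene span as length, the mutant values corresponded to about 0 to 22 fragments and the WT values to about 681, 2096 and 37642. The mutant means of 1.433 and 0.92 FPKM were 0.0793% (libraries labelled Aovps1 mutant) and 0.0509% (libraries labelled Aomdv1 mutant) of the WT mean of 1807 FPKM. Without WT library 3 the same shares were 0.808% and 0.519% of a WT mean of 177.3 FPKM. The log2 fold changes over WT were -7.75 (SE 1.2) and -8.14 (SE 1.2) in the same order of mutants, and -6.06 and -6.45 when WT library 3 was left out.

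AOL_s00188g331, the fucose-specific lectin gene among the 3, was a gene of moderate level in WT. It had 0.24, 0 and 0.11 FPKM in the libraries labelled Aovps1 mutant, stood at 0 in each of the 3 with the Aomdv1 label, and had 9.51, 4.51 and 11.43 FPKM in WT libraries 1, 2 and 3. All mutant libraries were below all WT libraries. With the gene span as length, 1 fragment was worth an estimated 0.0434 to 0.0527 FPKM for this gene in the mutant libraries. By this estimate the libraries labelled Aovps1 mutant held about 5 fragments or fewer each, against about 215, 96 and 234 in WT. The counts are rough, and would be lower if the transcript is shorter than the span. The mean in the libraries labelled Aovps1 mutant was 1.38% of the WT mean (log2 fold change -3.01, SE 0.321). For the libraries labelled Aomdv1 mutant no fold is given, since the table lists the gene at 0 there. The 7054 loci at 4 FPKM or more in every WT library had no upper limit of level. Of these, 4 were at 0 in all 3 libraries with the Aovps1 label. With the Aomdv1 label 5 were at 0 in all 3 libraries, this gene among them. Nothing is read from its place there, because low mutant values chose the gene. Of 133 ribosomal protein genes with a mean of 50 FPKM or more, 0 were listed at 0 in any library. Such a mean makes that likely, so it says nothing about genes of lower level.

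**Figure D1:**
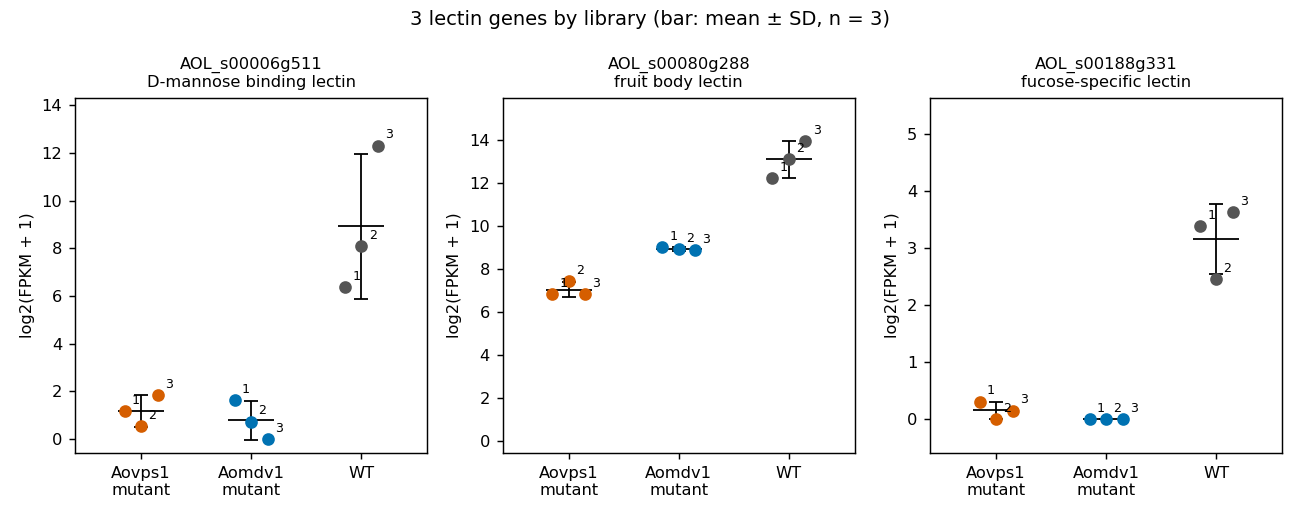
Levels of the 3 lectin genes as log2(FPKM + 1) in each library of the groups labelled Aovps1 mutant, Aomdv1 mutant and WT (points, numbered by library; bars are mean ± SD, n = 3). All WT points lie above all mutant points in each panel, AOL_s00006g511 spans 82.81 to 5065.88 FPKM within WT, and AOL_s00080g288 alone keeps its 2 mutant groups apart.

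All 3 genes passed the filter on low values (FPKM of 1 or more in at least 3 libraries). AOL_s00188g331 did so through its WT libraries alone and AOL_s00006g511 reached 1 FPKM in 3 mutant libraries besides WT. In the fit over all loci 5.21% of the tested loci were called lower in the libraries labelled Aovps1 mutant than in WT and 4.22% in those labelled Aomdv1 mutant. Groups that did not overlap, with the mutant lower, were seen in 13.0% and 8.56% of tested loci. Nothing is read from the place of the 3 genes among these, because that contrast chose them. As bulk RNA was sequenced, fewer cells that use a gene and less transcript per cell cannot be told apart.

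The direct difference between the mutants did not choose the genes and was tested for 2 of them in the same limma fit. AOL_s00080g288 averaged 130.3 ± 33.8 FPKM in the libraries labelled Aovps1 mutant and 480.5 ± 25.6 FPKM in those labelled Aomdv1 mutant (SD, n = 3 each), so that the first mean was 27.1% of the second. The log2 difference was -1.90 (95% interval -2.79 to -1.02, unadjusted p = 0.000728, limma adjusted p = 0.342). An exact two-sided permutation test of the 3 against 3 libraries gave p = 0.1, the smallest it can give. The difference thus did not pass the threshold over all loci, although the groups did not overlap. For AOL_s00006g511 the log2 difference was 0.40 (95% interval -2.27 to 3.06, limma adjusted p = 0.92, exact permutation p = 0.5). Both intervals and limma p-values rest on a spread per locus estimated over all 9 libraries, WT included. For AOL_s00006g511 the SD of log2 values was 3.05 in WT, 0.66 with the Aovps1 label and 0.82 with the Aomdv1 label. For AOL_s00080g288 it was 0.86, 0.35 and 0.08 in the same order. In a fit of the 2 mutant groups alone the limma adjusted p was 0.717 for AOL_s00006g511 and 0.208 for AOL_s00080g288. For AOL_s00188g331 no test of the difference between the mutants is given, since both groups lay at or near 0. From high to low the levels of AOL_s00080g288 ran WT, Aomdv1 label, Aovps1 label with no overlap of libraries, whereas the mutant libraries of the other 2 genes overlapped. With limma 0 of 10318 loci (0.0%) were called between the mutants, against 978 (9.48%) at an unadjusted p under 0.05. Groups that did not overlap, with the libraries labelled Aovps1 mutant lower, were seen in 6.1% of loci.

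The table named 34 other genes with a lectin domain or lectin hit, of which 24 passed the filter. The 10 others never exceeded 4.5 FPKM. In the libraries labelled Aovps1 mutant 6 of the 24 rose and 2 fell, against 8.61% of all tested loci called higher and 5.21% called lower. In the libraries labelled Aomdv1 mutant 4 rose and 2 fell, against 5.62% and 4.22% of all loci. The median log2 fold change of the 24 was 0.40 and -0.06 in the 2 mutants, and over all tested loci it was 0.30 and 0.08. Both comparisons share the WT libraries. Median-ratio scaling, under which the median of all loci over WT was 0.00 for the Aovps1 label, gave 3 risers and 3 fallers there. Among all calls the share of risers was 62.3% without scaling, 42.6% with median-ratio scaling and 48.5% with quantile scaling. Between the mutants 0 of the 24 passed with limma, and 5 had an unadjusted p under 0.05. Called lectin genes thus lay on both sides of WT.

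Fucose-specific lectins recognise the sugar fucose in glycan chains. The table held 9 genes with this domain, AOL_s00188g331 included, and 6 of the other 8 were tested. Of these 6, 2 fell and 0 rose in each mutant, against 5.21% (Aovps1 label) and 4.22% (Aomdv1 label) of all tested loci called lower. Both fallers, AOL_s00076g540 and AOL_s00081g228, met the filter only because of their WT libraries, and their p-values carry that limit. AOL_s00076g540, whose Swiss-Prot hit is the fucose-specific lectin of Aspergillus oryzae, had 1.23, 0.26 and 0.35 FPKM in the libraries labelled Aovps1 mutant, 3.02, 0.80 and 0.12 FPKM in those labelled Aomdv1 mutant, and 27.08, 25.34 and 200.12 FPKM in WT. All mutant libraries were below all WT libraries, and WT library 3 was again the highest. It fell in both, with log2 fold changes of -5.09 (SE 0.756, limma adjusted p = 0.00191) for the Aovps1 label and -4.72 (SE 0.756, limma adjusted p = 0.0029) for the Aomdv1 label, and both calls were made under all 16 alternatives. Its mutant means were 0.729% and 1.56% of the WT mean, or 2.34% and 5.01% without WT library 3.

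The second faller was the weakly expressed AOL_s00081g228, with 0.07, 1.05 and 0.19 FPKM in the libraries labelled Aovps1 mutant, 0.65, 0.51 and 0 FPKM in those labelled Aomdv1 mutant, and 1.82, 2.22 and 5.59 FPKM in WT. Its log2 fold changes were -1.51 (limma adjusted p = 0.032) and -1.53 (limma adjusted p = 0.0368) in the same order. These calls were made under 9 and 5 of the 15 alternatives in which the gene was tested, with adjusted p up to 0.133 and 0.084. AOL_s00173g155 had means of 1.913, 1.99 and 5.207 FPKM in the 3 groups and was not called (limma adjusted p = 0.084 and 0.126), although each mutant group lay below WT with no overlap. For the Aovps1 label it was called with median-ratio scaling (log2 fold change -1.25, limma adjusted p = 0.0367) and with quantile scaling (-1.18, limma adjusted p = 0.0364). The more abundant AOL_s00078g564, at 60.43 ± 14.8 FPKM in the libraries labelled Aovps1 mutant, 50.45 ± 5.06 in those labelled Aomdv1 mutant and 59.04 ± 24.3 in WT, was not called (log2 fold change 0.11, 95% interval -0.72 to 0.93, and -0.13, -0.95 to 0.70). AOL_s00054g276 averaged 15.07, 9.147 and 15.34 FPKM and AOL_s00173g391 20.45, 15.1 and 30.1 FPKM in the same order, and neither was called. The summed level of the 9 genes was 91.73 to 104.5 FPKM in the libraries labelled Aovps1 mutant, 64.74 to 87.56 in those labelled Aomdv1 mutant and 144.2 to 328.6 in WT. This sum includes AOL_s00188g331, which was chosen for its low mutant values. It also includes AOL_s00076g540, which alone had 27.08, 25.34 and 200.12 FPKM in WT. No difference of the family as a whole is therefore read from the sum. How far reads were shared between similar genes of this family is not given in the sources used here.

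**Figure D2:**
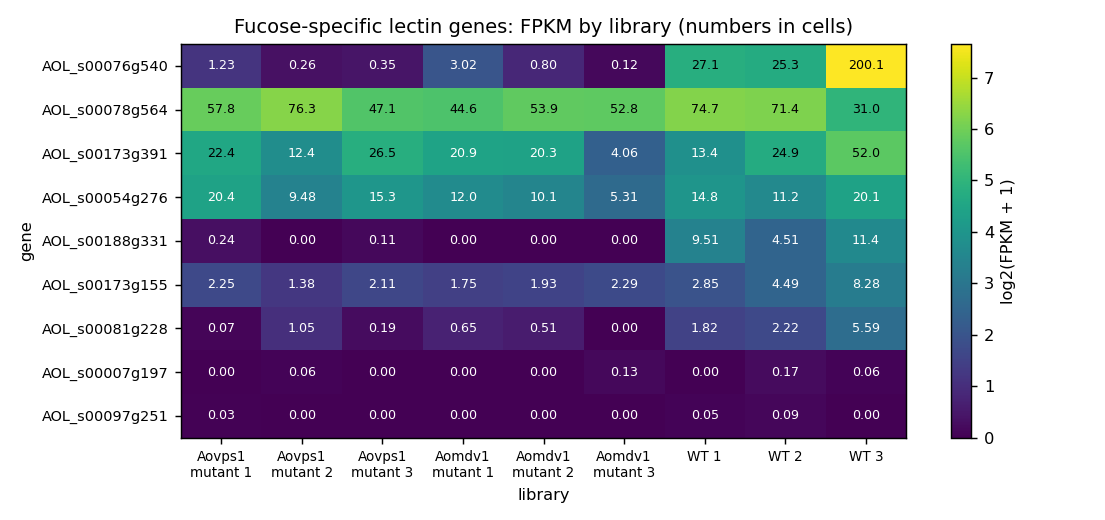
FPKM of the 9 genes with a fucose-specific lectin domain (rows, ordered by WT mean) in each library (columns), with colour as log2(FPKM + 1) and the FPKM printed in each cell. AOL_s00076g540 and AOL_s00188g331 are darker in all 6 mutant libraries than in WT, while AOL_s00078g564 shows 44.64 to 76.35 FPKM in the mutants.

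The ricin-type genes, whose beta-trefoil domain is shared with the sugar-binding chain of the plant toxin ricin, had called members on the other side. Of 6 tested genes 2 rose for the Aovps1 label and 3 for the Aomdv1 label, against 8.61% and 5.62% of tested loci called higher. In the fit over all libraries 0 fell in either mutant. AOL_s00078g374 went the other way, with 2.68, 1.65 and 1.01 FPKM for the Aomdv1 label, below 3.22, 9.61 and 30.15 FPKM in WT. Its log2 fold changes were -1.12 (Aovps1 label, limma adjusted p = 0.243) and -2.05 (Aomdv1 label, limma adjusted p = 0.0617). For the Aomdv1 label it was called lower under 3 of 16 alternatives. AOL_s00080g99 had 211.07, 246.32 and 233.03 FPKM in the libraries labelled Aovps1 mutant, 357.43, 357.64 and 617.68 FPKM in those labelled Aomdv1 mutant, and 77.08, 60.09 and 91.24 FPKM in WT. It rose in both, with log2 fold changes of 1.60 (SE 0.296, limma adjusted p = 0.00633) and 2.50 (SE 0.296, limma adjusted p = 0.000478), and both calls were made under all 16 alternatives. AOL_s00173g393 rose alike, at 962.7 ± 130 FPKM and 1759 ± 470 FPKM in the libraries labelled Aovps1 and Aomdv1 mutant and at 362.9 ± 110 FPKM in WT (SD, n = 3 each). Its log2 fold changes were 1.44 (limma adjusted p = 0.0116, and 0.0745 with median-ratio scaling) and 2.28 (limma adjusted p = 0.000958). AOL_s00215g496 was called in the libraries labelled Aomdv1 mutant alone, with means of 143.1, 189.7 and 86.9 FPKM in the 3 groups (log2 fold change 1.09, limma adjusted p = 0.0481), and that call was made under 3 of 16 alternatives. Whether its change differed between the mutants was tested and not called (log2 difference -0.36, limma adjusted p = 0.654).

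The ricin-type gene AOL_s00043g240 was the most abundant lectin transcript in all 6 mutant libraries. It had 5648.8, 5180.06 and 4997.94 FPKM in the libraries labelled Aovps1 mutant, 4020.23, 3726.44 and 17238.73 FPKM in those labelled Aomdv1 mutant, and 9099.07, 8554.18 and 10401.6 FPKM in WT. Library 3 labelled Aomdv1 mutant stood above WT and the other 5 mutant libraries below it. The gene was not called over all libraries (log2 fold change -0.82, limma adjusted p = 0.302, and -0.55, limma adjusted p = 0.584). Without library 3 labelled Aomdv1 mutant it was called lower in both (-0.82, limma adjusted p = 0.0185, and -1.27, limma adjusted p = 0.00677).

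**Figure D3:**
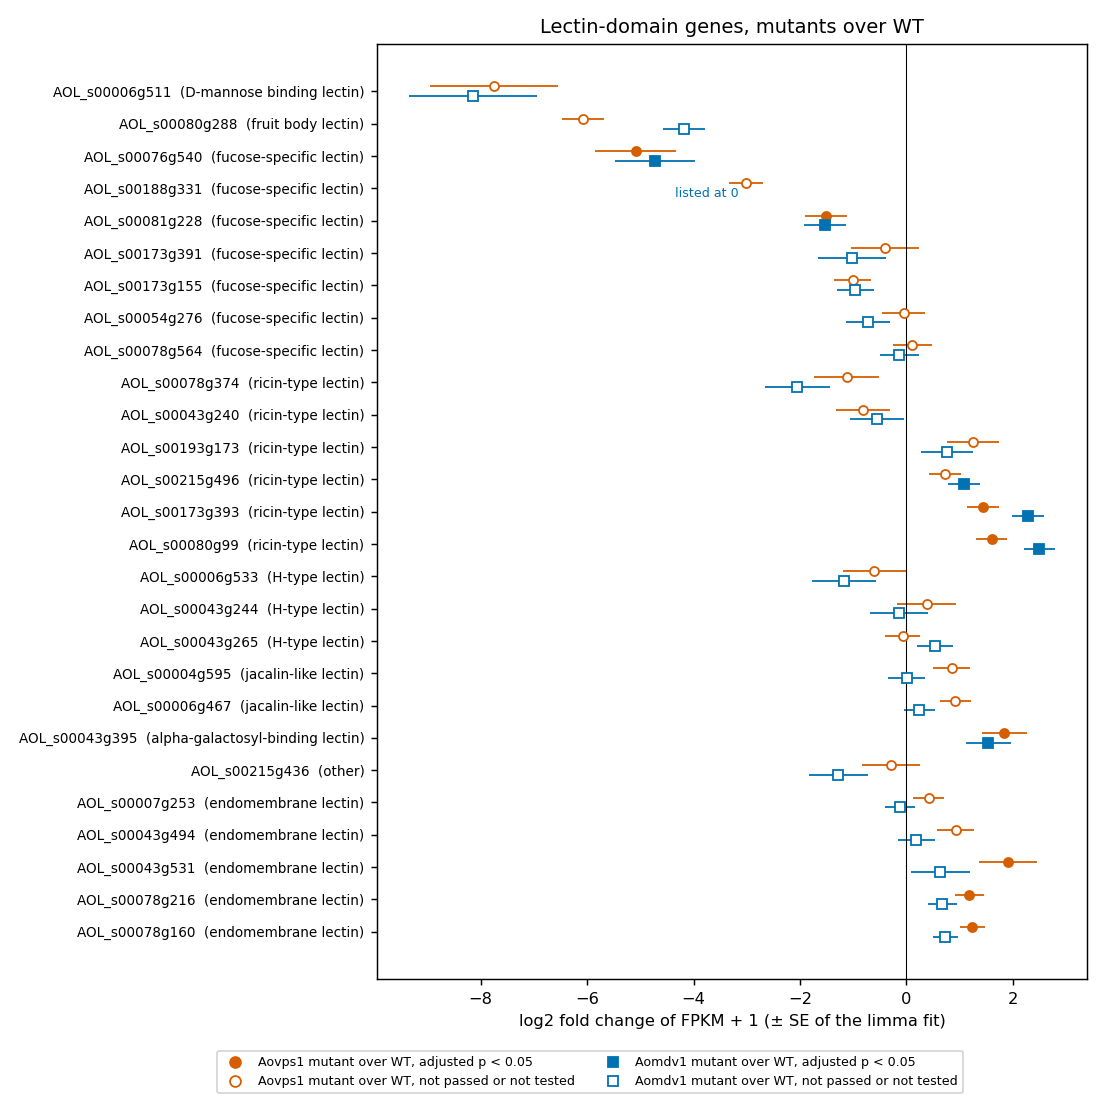
Log2 fold change over WT (points, ± SE of the fit) of the 3 lectin genes and the 24 other tested genes with a lectin domain or hit, for the libraries labelled Aovps1 mutant (circles) and Aomdv1 mutant (squares), with filled points where the adjusted p was under 0.05. The 3 chosen genes are drawn open because their change carries no test, and AOL_s00188g331 is marked as listed at 0 for the Aomdv1 label. The called fucose-specific genes lie left of 0 and the called ricin-type genes right of it.

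The 32 listed genes without a Pfam domain of the secretory-pathway lectins were classed as secreted or soluble, without evidence on where their proteins are. Across them the summed level was 6936 to 7332 FPKM in the libraries labelled Aovps1 mutant. It was 6762, 6616 and 21060 FPKM in libraries 1, 2 and 3 labelled Aomdv1 mutant and 14880, 18720 and 32290 FPKM in WT. Library 3 labelled Aomdv1 mutant lay within the WT range because of AOL_s00043g240, which made up 81.9% of its sum. AOL_s00080g288 supplied 1.52 to 2.39% of this sum in the libraries labelled Aovps1 mutant, 2.18 to 7.52% in those labelled Aomdv1 mutant and 32.0 to 48.7% in WT. AOL_s00006g511 supplied at most 0.0376% in any mutant library, and 0.557, 1.45 and 15.7% in WT libraries 1, 2 and 3. In WT the fruit body lectin gene therefore shared the first place with AOL_s00043g240: it was the highest lectin transcript in WT libraries 2 and 3, and AOL_s00043g240 in WT library 1.

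**Figure D4:**
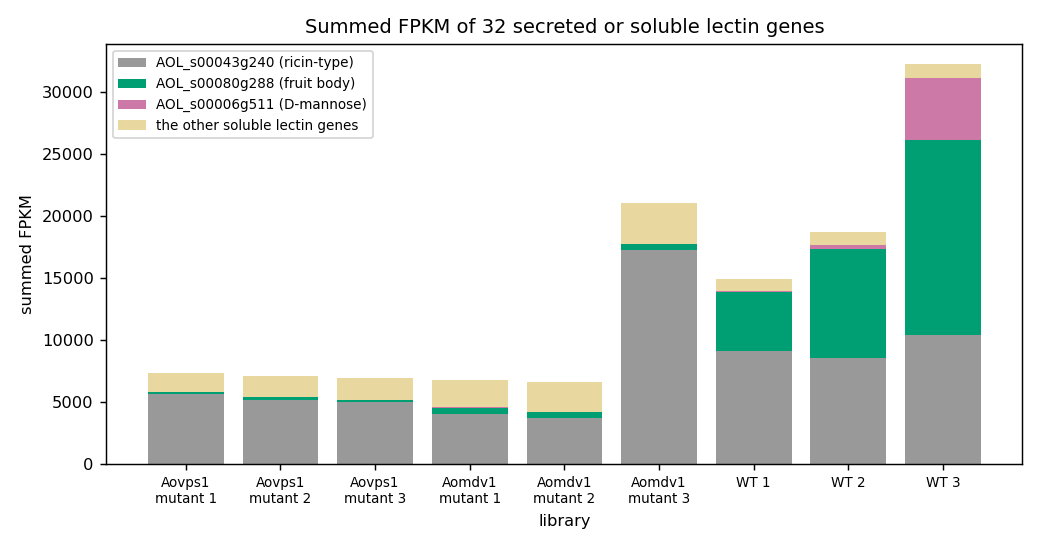
Summed FPKM of the 32 lectin genes classed as secreted or soluble in each library, split into AOL_s00043g240, AOL_s00080g288, AOL_s00006g511 and the other genes. The share of AOL_s00080g288 is 1.52 to 7.52% in the mutant libraries and 32.0 to 48.7% in WT, and library 3 labelled Aomdv1 mutant reaches 21060 FPKM through AOL_s00043g240.

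Among the remaining soluble types, the alpha-galactosyl-binding gene AOL_s00043g395 rose in both mutants, at 3.233 ± 1.9 FPKM and 2.46 ± 1.47 FPKM in the libraries labelled Aovps1 and Aomdv1 mutant and 0.1133 ± 0.147 FPKM in WT. Its log2 fold changes were 1.84 (limma adjusted p = 0.0175) and 1.54 (limma adjusted p = 0.0465), and the calls were made under 11 of 15 and 6 of 14 alternatives. It met the filter only because of its mutant libraries. None of the 3 tested H-type genes and neither of the 2 tested jacalin-like genes was called.

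Of the 5 lectins of the secretory pathway 3 rose in the libraries labelled Aovps1 mutant, and 0 passed in those labelled Aomdv1 mutant, against 8.61% and 5.62% of all tested loci called higher. Of the 3 risers, calnexin alone kept its call with median-ratio scaling. Calnexin (AOL_s00078g160), which holds glycoproteins in the endoplasmic reticulum until they fold, averaged 365.3 ± 34.2 FPKM in the libraries labelled Aovps1 mutant, 256.9 ± 11.4 in those labelled Aomdv1 mutant and 155.1 ± 20.9 in WT. Its log2 fold change was 1.24 (limma adjusted p = 0.00712) and 0.73 (limma adjusted p = 0.0826) in the 2 mutants. OS-9 (AOL_s00078g216), which hands misfolded glycoproteins to degradation, had a change of 1.18 (limma adjusted p = 0.018, 0.0704 with median-ratio scaling, called under 10 of 16 alternatives) and 0.67 (limma adjusted p = 0.172). The L-type lectin gene AOL_s00043g531 had changes of 1.91 (limma adjusted p = 0.0464, 0.0764 with median-ratio scaling, called under 6 of 16 alternatives) and 0.64 (limma adjusted p = 0.558). Without library 3 labelled Aomdv1 mutant its change in that mutant was 1.34 (limma adjusted p = 0.0338). The difference between the mutants was not called for any of the 5 genes (limma adjusted p = 0.523 to 0.554).

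WT library 3 moved with the lectin genes. It held the highest WT value of all 3 chosen genes, of 18 of the 24 others (75.0%), and of 5 of the 6 other fucose-specific genes, against 53.8% of all tested loci. What part this library has in the WT levels was not tested.

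The 3 loci on either side of each gene were examined next. Of these 18 neighbours 9 were tested, and 2 fell in both mutants while 0 rose, against 5.21% (Aovps1 label) and 4.22% (Aomdv1 label) of all tested loci called lower. Both were the direct neighbours of the mannose-binding lectin gene. AOL_s00006g510, 3540 bp before it on the same strand, had 0.29, 1.1 and 0.4 FPKM in the libraries labelled Aovps1 mutant, 0.3, 0.92 and 1.15 FPKM in those labelled Aomdv1 mutant, and 8.43, 23.82 and 51.81 FPKM in WT. Its log2 fold changes were -3.89 (limma adjusted p = 0.00145) and -3.72 (limma adjusted p = 0.00189). It met the filter only because of its WT libraries. AOL_s00006g512, 3758 bp after the lectin gene on the other strand, had 1.12, 1.46 and 0.45 FPKM (Aovps1 label), 2.01, 0.26 and 0 FPKM (Aomdv1 label), and 14.68, 26.35 and 9.22 FPKM in WT. Its log2 fold changes were -3.06 (limma adjusted p = 0.00284) and -3.39 (limma adjusted p = 0.00163). Neither gene has an annotated domain, and WT library 3 was the highest WT library for the first and the lowest for the second.

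None of the tested neighbours of AOL_s00080g288 and AOL_s00188g331 was called in either mutant. AOL_s00080g287, 4067 bp before it and annotated with a RED-like domain, was not called (log2 fold change -0.33, limma adjusted p = 0.686, and -0.77, limma adjusted p = 0.406), and AOL_s00080g289, only 458 bp after it on the other strand, never exceeded 0.47 FPKM. Next to AOL_s00188g331, the tested methyltransferase gene AOL_s00188g329 was not called (log2 fold change 0.33, limma adjusted p = 0.589, and 0.02, limma adjusted p = 0.981). The untested AOL_s00188g333, at 0.05, 0.06 and 0.05 FPKM in the libraries labelled Aovps1 mutant and 0 in all 3 labelled Aomdv1 mutant, had 0.92, 0.62 and 0.78 FPKM in WT.

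**Figure D5:**
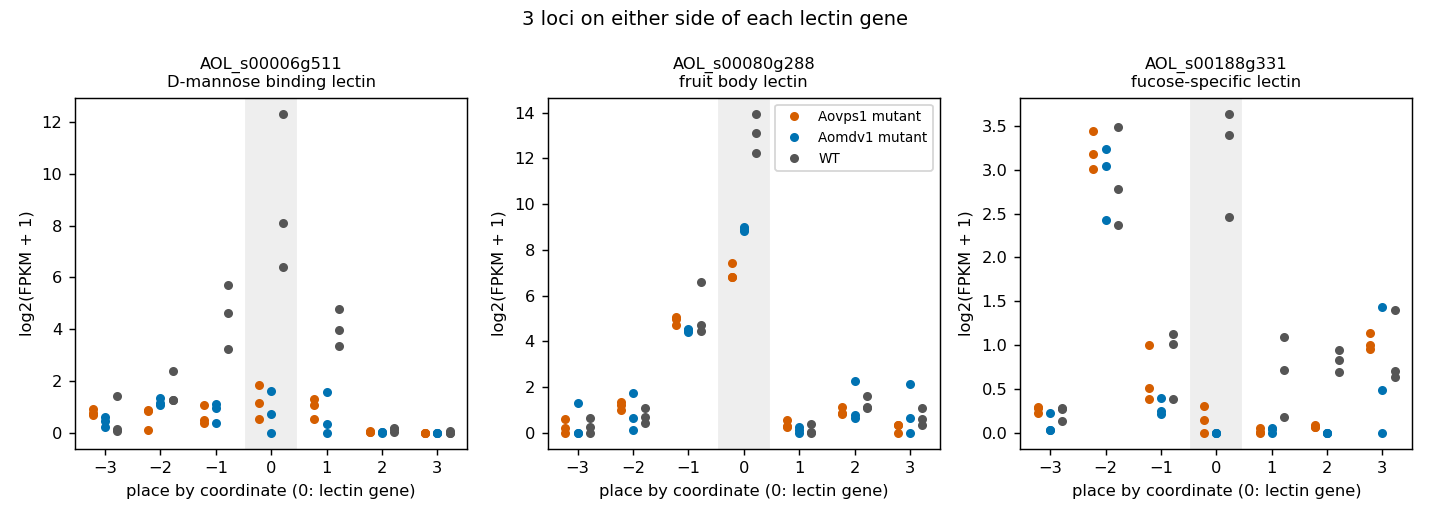
Levels as log2(FPKM + 1) of each lectin gene (place 0, shaded) and of the 3 loci on either side by coordinate, for each library labelled Aovps1 mutant, Aomdv1 mutant and WT. Beside AOL_s00006g511 the loci at places -1 and 1 are high in WT alone, whereas beside AOL_s00080g288 the locus at place -1 overlaps between the groups.

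The loci most like each gene were taken by 2 measures over the 9 libraries, Pearson's r of log2(FPKM + 1) and the mean absolute log2 difference. Since WT and mutant libraries lie far apart for these genes, r mostly reflects that gap, and it is given as a description. The 30 places went to 27 loci, of which 17 have no Pfam domain and 2 were on the scaffold of the lectin gene they resembled.

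For AOL_s00006g511 the closest annotated loci were a transporter gene of the major facilitator superfamily, AOL_s00076g462 (r = 0.99), and the copper transporter gene AOL_s00078g476 (r = 0.986). The copper transporter gene had 0.19 to 0.48 FPKM in the libraries labelled Aovps1 mutant, 0 to 1.5 in those labelled Aomdv1 mutant, and 18.29, 77.07 and 317.35 FPKM in WT libraries 1, 2 and 3. Both transporter genes shared the order of the WT libraries with the lectin gene. So did the other loci highest by r, and choosing loci by r makes this likely. The fucose-specific lectin gene AOL_s00076g540 was among the 5 loci nearest in level, at a mean absolute log2 difference of 1.32. The top locus by r, AOL_s00169g256 (r = 0.991), has no annotated domain.

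For AOL_s00080g288 the 5 loci highest by r had r of 0.984 to 0.991. Among them were AOL_s00004g52, whose Swiss-Prot hit is a carnosine N-methyltransferase, and the unannotated AOL_s00076g18. The 5 loci highest by r all kept their mutant groups apart, and choosing loci by r makes this likely. AOL_s00076g18 had 1.0, 1.22 and 0.93 FPKM in the libraries labelled Aovps1 mutant, 11.65, 11.76 and 9.0 FPKM in those labelled Aomdv1 mutant, and 59.6, 97.07 and 391.72 FPKM in WT. Nearest in level were the unannotated AOL_s00169g241 (mean absolute log2 difference 0.898) and AOL_s00188g280 (0.968), followed by the protease inhibitor gene AOL_s00215g748 (1.11).

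For AOL_s00188g331 the highest r belonged to AOL_s00188g276 (r = 0.991), an unannotated gene listed at 0 in all 6 mutant libraries and at 16.07, 12.87 and 35.6 FPKM in WT. The Hsp70 chaperone gene AOL_s00170g37 followed (r = 0.99), with 0.6 to 0.76 FPKM in the libraries labelled Aovps1 mutant, 0.45 to 1.06 in those labelled Aomdv1 mutant and 40.35 to 102.44 in WT. Nearest in level was AOL_s00083g429 (mean absolute log2 difference 0.169), and AOL_s00176g100, annotated with an Egh16-like virulence factor domain, was also among the nearest (0.324), at 3.35, 5.95 and 8.02 FPKM in WT.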

How the data were processed

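The authors deposited 1 table of FPKM values, rounded to 2 decimals, for 12901 loci and 9 libraries, with 0 columns of other samples. No aligner, counting program or transcript length is named in the sources used here, nor is strandedness. All 9 libraries, matched to the labels by title, went into 1 limma-trend model (limma 3.58.1, R 4.3.3) of log2(FPKM + 1) with a term for each group, two-sided. A locus was tested if 3 or more libraries reached FPKM 1 (10318 loci), and p-values were Benjamini-Hochberg adjusted over all of them with a threshold of 0.05. The pseudocount of 1 makes fold changes of low genes too small. Depth was estimated from the steps of FPKM values of loci under 700 bp, using gene spans as lengths, and 68.0 to 77.6% of those values lay within 0.1 of a whole fragment. The depths tried were narrowed to 8000000 to 28000000 after a first estimate had come out at double, where 93.7 to 96.4% of the whole values were even. Both procedures were tested on simulated data, with limits. The depth simulation used the same gene spans as lengths, so it cannot show errors from spans that differ from transcript lengths. The simulated fit used normal noise and changed the Aovps1 group alone, so it does not cover genes near 0 in both mutants.

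The lectin list came from words in the Pfam, Swiss-Prot, NR and description columns, with the secretory-pathway lectins added by Pfam domain and 1 ribosomal gene matched by the word plectin removed. Named genes are the 3 lectin genes, the 5 most similar loci by either measure, the 3 loci on either side, listed lectin genes past the threshold and others sharing a lectin domain, of which those with the values a comparison needs are printed, and the targeted genes. AOL_s00043g240 and AOL_s00078g374 were named after their values were seen. The members and lists were chosen with earlier results of these data known. Sequences were not used here. The fit was repeated with a pseudocount of 0.1, without the filter, with a mean FPKM filter of 5, after median-ratio or quantile scaling, with a replicate block, on the compared pair of groups alone, and without each library in turn.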

Additional observations from a re-analysis of the deposited data

How the results depend on the processing

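The log2 fold change of AOL_s00188g331 in the libraries labelled Aovps1 mutant moved from -3.01 to -5.38 with a pseudocount of 0.1. It had no value when a WT library was left out, since it then failed the filter. AOL_s00080g288 differed between the mutants by -2.11 to -1.80 over 16 alternatives (limma adjusted p = 0.141 to 0.886). Between the mutants 1 locus was called without a filter and 1 with median-ratio scaling, against 0, and leaving out 1 library gave 0 to 24 (24 without library 1 labelled Aomdv1 mutant). Fitting only the 2 groups compared gave 2463 loci over WT for the libraries labelled Aovps1 mutant, against 1426, and 528 for those labelled Aomdv1 mutant, against 1015. Leaving out 1 library gave 586 to 2580 and 515 to 1392, the highest counts being those without library 3 labelled Aomdv1 mutant and without WT library 3, and the lowest both without WT library 2. Of the 24 other lectin genes, 8 were called in the libraries labelled Aovps1 mutant, and 3 to 14 with 1 library left out (14 without library 3 labelled Aomdv1 mutant). In those labelled Aomdv1 mutant 6 were called, 3 with a mean FPKM filter of 5, 3 in the fit of 2 groups, and 3 to 6 with 1 library left out. The replicate block also gave 3, and over all loci it called 1178 for the Aovps1 label and 894 for the Aomdv1 label over WT, and 0 between the mutants. Whether the replicate numbers pair the libraries stayed unclear, and not every library correlated best with its own number. Deviations of same-numbered libraries correlated at -0.00515 to 0.236 (Aovps1 label and WT), -0.00886 to 0.387 (Aomdv1 label and WT) and -0.283 to -0.0338 (the 2 mutants). Those of differently numbered libraries correlated at -0.234 to 0.189, -0.275 to 0.0842 and -0.138 to 0.278 in the same order. Same-numbered libraries thus reached higher values with WT and lower values between the mutants. At the estimated depth, 1 fragment of AOL_s00006g511 was worth 0.119 to 0.145 FPKM, so values near 0 rest on few fragments.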
